A study of Mus musculus with 24 samples.

Results

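The 34 genes described here encode parts of T cell receptor signalling and proteins that mark T cell identity. The list names its genes and uses no measured value, but it was drawn up with earlier results of these data known. All 34 were found among the 24421 gene symbols counted. They comprise 4 receptor chains, 3 co-receptors, 6 kinases and other enzymes, 9 adaptors, 8 surface molecules and 4 nuclear factors. Expression was measured by total RNA-seq of adipose tissue from C57BL/6 mice 2 months old. Genotypes were wild type (WT), STAT5B-Y665F and STAT5B-Y665H, the last 2 being point mutants, and 4 libraries were sequenced for each genotype in each sex, which gave 6 groups and 24 libraries. The labels give no fat depot, do not give the zygosity of the mutants, and do not say that each library came from a separate mouse. The p-values thus measure the spread between these libraries, which need not be the spread between mice. A point mutation cannot be checked from gene counts.

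The T cell receptor binds peptide on another cell and passes the signal through the CD3 chains, which have tails that the kinase LCK phosphorylates. ZAP70 docks there and phosphorylates the adaptor LAT, on which GRAP2, LCP2 and further enzymes assemble, while CD4 and CD8 bring LCK to the receptor. BCL11B, TCF7, LEF1 and SATB1 are DNA-binding proteins of T cell development. STAT5B carries signals from receptors for cytokines and growth hormone to DNA, and T cells use it downstream of interleukin receptors. The mutated tyrosine lies in its SH2 domain, and changes at this residue have been found in human T cell leukaemias. Adipose tissue holds resident and passing T cells among many adipocytes and macrophages, so T cell transcripts are a small share of its RNA.

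The depth, as counts assigned to gene symbols, ran from 21.0 M to 41.3 M per library. Levels are CPM, counts per 1000000 gene counts, and a count of 0 allows up to 0.0726 to 0.143 CPM (3 counts, counting error only). The 3 chains Cd3d, Cd3e and Cd3g together reached 1.61 to 2.46 CPM in WT females and 7.66 to 10.7 CPM in Y665F females, so T cell transcripts were detected in every group. Of the 34 genes, 16 had a mean of at least 1 CPM in WT females, 22 in WT males, and 31 in Y665F mice of either sex. In bulk tissue, fewer cells of a type and less RNA per cell cannot be told apart.

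Per exon length, the most abundant of these genes in WT females was Thy1, a surface glycoprotein also made by fibroblasts, at 15.4 CPM per kb. Fyb and Lcp2, adaptors that myeloid cells make too, followed at 3.39 and 2.08 CPM per kb. The CD3 chains lay below them, with Cd3d at 0.283, Cd3e at 0.230 and Cd3g at 0.170 CPM per kb. Sh2d1a, an adaptor of SLAM receptors, and Trat1, an adaptor of the receptor complex, were lowest at 0.0101 and 0.0116 CPM per kb.

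Some libraries stood apart in the genes of other cells and tissues. Rag1, Rag2, Dntt and Ptcra, which immature T cells of the thymus use to build the receptor, summed to 27.8 CPM in Y665F male 1 and 27.1 CPM in Y665H female 4, against at most 1.11 CPM in the other 22 libraries. Most of that sum was the recombinase gene Rag1, at 20.3 CPM and 21.2 CPM, and Dntt, at 6.29 CPM and 5.25 CPM, while Ptcra stayed at 0.193 CPM and 0.0852 CPM. These libraries also had the highest Themis, Cd8a and Cd8b1 of their groups. The 9 epididymis genes summed to 14434 CPM in WT male 2, 3370 in WT male 3, 1264 in WT male 4 and 1.30 in WT male 1, and to 0.502 to 1657 CPM in the mutant males. The 7 skeletal muscle genes summed to 89.5 to 789 CPM in WT females, 27.9 to 169 in Y665F females and 18.2 to 1368 in Y665H females. What part these tissues have in each result was not tested beyond the values given beside it.

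**Figure D1:**
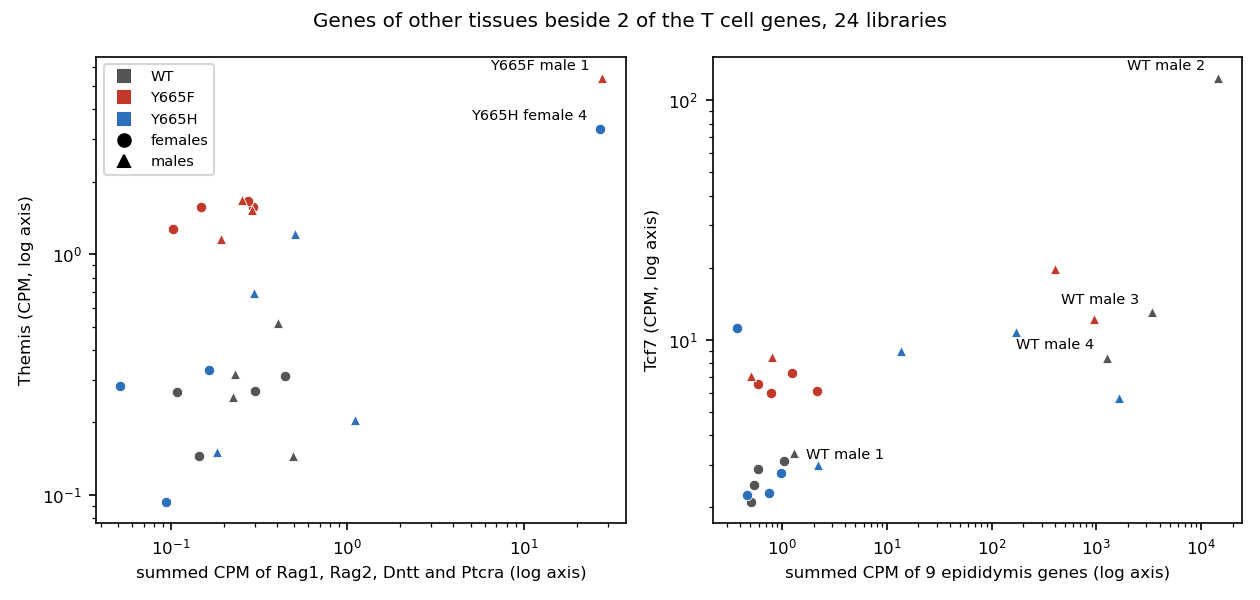
Each point is a library, coloured by genotype and shaped by sex, on log axes in CPM. Left, the summed level of 4 thymic genes against Themis, with Y665F male 1 and Y665H female 4 at the upper right. Right, the summed level of 9 epididymis genes against Tcf7, where WT male 2 has the highest value of both.

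The genes lie on 16 chromosomes, and some are neighbours. On chromosome 9 (GRCm38) Cd3g and Cd3d are transcribed away from each other from starts 1.354 kb apart, and Cd3e follows Cd3d after 11.4 kb. Cd8b1 and Cd8a lie 35.9 kb apart on chromosome 6, and Cd5 and Cd6 lie 50.3 kb apart on chromosome 19. RefSeq windows of the 250 bases before a transcription start were at hand for 25 of the 34 genes, in 39 windows. They are shown for Grap2, Bcl11b, Cd3g and Cd96, some of the 12 genes called higher in Y665F females with every library left out in turn. Cd3d is shown as well, since it shares the space between starts with Cd3g. The windows shown are a selection, so motif shares are given below over all 39. The sequences are given 5′ to 3′ in the direction of transcription, from the RefSeq GRCm38.p6 table. Capitals mark TTCNNNGAA, the core motif of STAT proteins, searched on both strands.
Cd3d: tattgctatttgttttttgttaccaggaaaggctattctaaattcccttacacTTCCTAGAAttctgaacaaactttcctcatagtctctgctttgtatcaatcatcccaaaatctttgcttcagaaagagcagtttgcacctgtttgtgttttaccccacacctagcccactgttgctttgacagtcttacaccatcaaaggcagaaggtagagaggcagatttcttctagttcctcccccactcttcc
Cd3g: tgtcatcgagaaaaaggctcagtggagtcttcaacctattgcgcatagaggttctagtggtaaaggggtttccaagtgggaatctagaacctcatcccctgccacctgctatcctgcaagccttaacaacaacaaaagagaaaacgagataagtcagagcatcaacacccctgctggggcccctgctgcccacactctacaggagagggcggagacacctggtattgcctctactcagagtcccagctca
Cd96: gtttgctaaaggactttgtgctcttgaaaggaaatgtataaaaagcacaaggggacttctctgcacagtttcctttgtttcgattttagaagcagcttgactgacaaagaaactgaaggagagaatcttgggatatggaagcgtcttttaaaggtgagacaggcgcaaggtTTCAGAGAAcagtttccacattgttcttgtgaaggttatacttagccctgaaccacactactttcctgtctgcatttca
Grap2: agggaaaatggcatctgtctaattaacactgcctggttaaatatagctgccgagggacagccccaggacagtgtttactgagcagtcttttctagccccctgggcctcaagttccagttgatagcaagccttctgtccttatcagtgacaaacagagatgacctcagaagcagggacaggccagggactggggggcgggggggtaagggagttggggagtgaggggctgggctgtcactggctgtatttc
Bcl11b: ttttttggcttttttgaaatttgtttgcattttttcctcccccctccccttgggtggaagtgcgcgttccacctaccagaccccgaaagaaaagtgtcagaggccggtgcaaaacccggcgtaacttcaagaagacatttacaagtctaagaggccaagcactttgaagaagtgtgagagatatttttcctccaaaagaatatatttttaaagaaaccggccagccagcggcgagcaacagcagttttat

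The windows are chr9:44981536-44981785 on the plus strand for Cd3d, chr9:44980432-44980681 on the minus strand for Cd3g and chr16:46120249-46120498 on the minus strand for Cd96. Those of Grap2 and Bcl11b are chr15:80623233-80623482 on the plus strand and chr12:108003415-108003664 on the minus strand. The Grap2 window lies inside the gene as GENCODE gives it (chr15:80572594-80652854). The Bcl11b window reaches into its gene, which GENCODE ends at chr12:108003602. These 2 windows thus belong to RefSeq starts within the GENCODE genes. The match begins 197 bases before the start of Cd3d and 79 bases before that of Cd96, and a further one lies 232 bases before a start of Ptpn22, a phosphatase that restrains the receptor. In all, 3 of the 39 windows (7.69%) held the motif, against 7.02% of 32851 windows of the same length. CTTTGA, the core motif of TCF7 and LEF1, was in 7 of the 39 windows (17.95%) and in 13.83% of all. The windows of these genes thus held either motif at a share near that of all windows, and no match says only that these letters are not in this window.

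Y665F was compared with WT in females first. With the quasi-likelihood test of edgeR, adjusted over all 15642 genes tested, 26 of the 33 tested genes rose and none fell (adjusted p under 0.05, termed called), against 2.31% of all tested genes that were called higher and 3.33% in either direction. The median log2 fold change was 1.83, against 0.02 over all genes tested, and 32 of 33 lay above 0. In 30 of the 34 genes every Y665F female library was above every WT female library, which held for 19.9% of all genes tested, and in none was it the reverse (2.96% of all genes). The genes called were 3 of 4 receptor chains, 2 of 3 co-receptors, 5 of 6 enzymes, 7 of 8 adaptors tested, 6 of 8 surface molecules and 3 of 4 nuclear factors.

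Among the receptor chains, Cd3g was at 0.732, 0.519, 0.538 and 0.434 CPM in the WT females and at 2.34, 1.71, 2.30 and 2.89 CPM in the Y665F females. The lowest Y665F library was above the highest WT library. The log2 fold change was 1.91 (SE 0.23, edgeR adjusted p 0.00978), and Cd3d and Cd3e rose by 2.28 and 1.92 on the same scale. Cd247, which encodes the zeta chain, was not called, with 2.53 to 3.47 CPM in WT and 2.34 to 4.35 CPM in Y665F females, so the groups overlapped. Of the exon length of Cd247, 56.43% is shared with Pou2f1 on the other strand, which was at 26.4 ± 1.95 CPM in WT females and 34.2 ± 2.45 CPM in Y665F females (SD, n = 4), and the strand setting of the counting is not given in the sources used here, so its value is uncertain.

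The co-receptor Cd4, which marks helper T cells and is also made by some myeloid cells, was at 1.38, 1.27, 1.56 and 1.53 CPM in WT and at 7.07, 5.71, 4.88 and 4.96 CPM in Y665F females. The WT libraries lay close together and far below every Y665F library. The log2 fold change was 1.84 (SE 0.18, edgeR adjusted p 0.00884). Cd8a, the alpha chain of the co-receptor of cytotoxic T cells, rose by 2.06 (SE 0.23, edgeR adjusted p 0.00978), from 0.484 to 0.705 CPM in WT up to 1.96 to 3.15 CPM. Its partner Cd8b1 did not overlap either but was not called (1.80, SE 0.50, edgeR adjusted p 0.0826) at 0.0269 to 0.790 CPM over these 8 libraries.

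Of the enzymes, Lck, the kinase that starts the signal, was at 1.95, 1.61, 1.34 and 1.97 CPM in WT and at 8.24, 7.21, 4.64 and 7.20 CPM in Y665F females. All 4 Y665F libraries were above 4.6 CPM and none of the WT libraries reached 2. The log2 fold change was 1.86 (SE 0.23, edgeR adjusted p 0.0103). Ubash3a, a phosphatase-like regulator of the receptor, Zap70, the TEC family kinase Txk and Ptpn22 rose by 1.36 to 2.21. Prkcq, the protein kinase C of the T cell synapse, was at 1.13 (SE 0.26, edgeR adjusted p 0.0532), and its highest value, 9.34 CPM, was in Y665F female 3, which also had the highest epithelium sum of the group at 1175 CPM.

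The adaptor Grap2 gave the smallest p-value of the 34 genes. It was at 2.79, 2.67, 2.55 and 3.06 CPM in WT and at 13.8, 11.1, 11.0 and 11.9 CPM in Y665F females, with a narrow spread in both groups. The log2 fold change was 1.97 (SE 0.13, edgeR adjusted p 0.00235). Lat, the hub of the signalling complex, was at 1.24 to 1.45 CPM in WT and at 5.03 to 7.91 CPM in Y665F females (2.02, SE 0.19, edgeR adjusted p 0.00884). Themis, an adaptor of thymocyte selection, was at 0.145 to 0.311 CPM and 1.27 to 1.66 CPM (2.46, SE 0.26, edgeR adjusted p 0.00978). The smallest change among called adaptors was that of Fyb, 0.81, and Lcp2, at 0.76 (edgeR adjusted p 0.0524), was not called. Trat1 had the largest fitted change of the 34, 3.21 (SE 0.49, edgeR adjusted p 0.0198), from 0.0259 to 0.134 CPM up to 0.473 to 0.733 CPM. Its WT values lie near the floor of 3 counts. Sh2d1a did not pass the filter on low counts.

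Among the surface molecules, Cd96, a receptor shared with natural killer (NK) cells, was at 0.217, 0.233, 0.134 and 0.202 CPM in WT and at 1.21, 0.887, 1.17 and 1.36 CPM in Y665F females. Every Y665F library was above every WT library. The log2 fold change was 2.39 (SE 0.25, edgeR adjusted p 0.00978). Cd6, a scavenger receptor of T cells, the CD20 relative Ms4a4b, Cd5, the adhesion molecule Cd2 and the co-stimulatory receptor Cd28 rose by 1.38 to 2.35. Cd27 was at 0.35 and Thy1 at -0.37, and neither was called. Thy1 was at 33.5 to 59.4 CPM in WT and 30.2 to 47.9 CPM in Y665F females, levels far above those of the CD3 chains.

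Of the nuclear factors, Bcl11b, which keeps T cells committed, was at 1.28, 1.14, 1.29 and 1.45 CPM in WT and at 5.42, 5.77, 4.60 and 5.67 CPM in Y665F females. The groups were separate and each was tight. The log2 fold change was 1.93 (SE 0.15, edgeR adjusted p 0.00612). Tcf7 rose by 1.16 and Lef1 by 1.85, both also used outside T cells. Gm43352, on the other strand, shares 13.75% of the exon length of Lef1, and Tenm1 26.61% of that of Sh2d1a, so their counts carry the same uncertainty as Cd247. Satb1 was at 0.41 (edgeR adjusted p 0.530), with its highest value, 37.1 CPM, again in Y665F female 3.

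**Figure D2:**
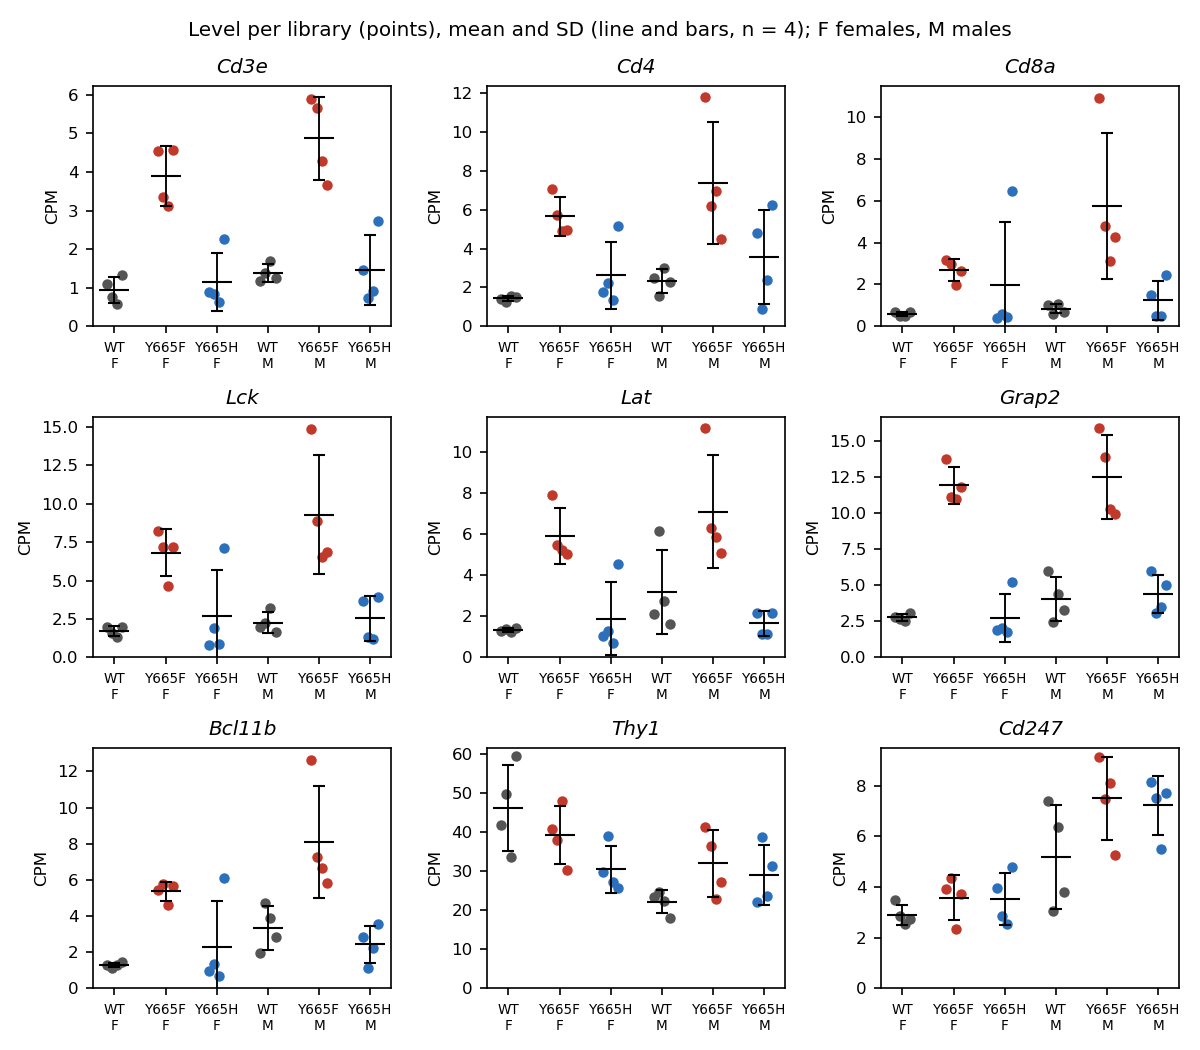
CPM of 9 of the genes in every library (points, n = 4 a group), with mean and SD as line and bars, bars cut at 0. Cd3e, Cd4, Cd8a, Lck, Grap2 and Bcl11b lie above every WT library of the same sex in all Y665F libraries, and Lat does so in females. Thy1 and Cd247 overlap between Y665F and WT, and Y665H female 4 is the highest Y665H female in each panel but that of Thy1.

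Of 51 other genes listed for the receptor pathway, 17 were called higher in Y665F females and none lower, with a median of 0.60. The background for this count and those of the lists that follow is 2.31% higher and 1.02% lower. The exchange factor Rasgrp1 rose by 1.70, the nuclear factor Ikzf3 by 2.00 and the phosphatase Ptprc (CD45), made by all white blood cells, by 1.21. Genes of other white blood cells were higher as well. Of 10 NK cell genes 5 were called higher, and their summed level was 6.85 to 9.26 CPM in WT and 15.1 to 17.0 CPM in Y665F females. Of 9 B cell genes 3 were called higher, with sums of 9.13 to 14.8 and 25.0 to 35.7 CPM. None of 10 macrophage genes was called, although 9 lay above 0 and the sums were 844.4 to 1181 and 1226 to 1906 CPM. None of the 10 adipocyte genes was called and all 10 lay below 0, with a median of -0.38. The thymic genes summed to 0.103 to 0.293 CPM in Y665F females and 0.108 to 0.441 CPM in WT females. Lymph node stroma genes summed to 4.88 to 9.43 CPM and 5.70 to 9.00 CPM, so both lists overlapped between the groups. Of the 6 stroma genes, 2 had a mean of at least 1 CPM and 1 had no counts in each of these groups, so that sum rests on few genes. The 7 skeletal muscle genes all lay below 0 in this comparison, with none called. With their level as a covariate, an alternative chosen after seeing the data, no gene of the 15642 was called. The median of the 33 genes was then 1.98, 32 lay above 0 and 29 had an unadjusted p under 0.05, as did 19.2% of all genes. Of the 26 calls, 12 were kept with every library left out in turn, and the same share over all called genes was not computed. The count was 13 without WT female 1 (background 0.412% higher), WT female 2 (0.413%) or Y665F female 1 (0.336%), 15 without Y665F female 4 (0.355%) and 17 without WT female 4 (0.444%).

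The same comparison in males gave larger spreads. No gene of 16240 was called in edgeR, so the background share is 0%, and the lowest adjusted p of the 32 tested genes was 0.0873. At an unadjusted p under 0.05 stood 21 of the 32, against 17.1% of all genes, and the DESeq2 Wald test called 18, all higher, against 3.83% of all genes called higher by it. The median log2 fold change was 1.28, against -0.04 over all genes, with 26 of 32 above 0. In 19 of the 34 genes every Y665F male library was above every WT male library, against 5.59% of all genes, and in none was it the reverse (3.26% of all genes).

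Cd3d was at 0.662, 0.543, 0.575 and 0.810 CPM in WT and at 3.50, 2.66, 2.62 and 2.18 CPM in Y665F males, without overlap (2.13, SE 0.26, edgeR adjusted p 0.0873). Cd2 was at 2.76, 2.81, 2.24 and 2.49 CPM in WT and at 8.44, 9.34, 6.82 and 6.22 CPM in Y665F males (1.63, SE 0.22, edgeR adjusted p 0.0873). Cd3e (1.88) and Ms4a4b (2.20) had the same adjusted p and did not overlap either. Lck was at 1.65 to 3.19 CPM in WT and 6.53 to 14.9 CPM in Y665F males (2.09, SE 0.35, edgeR adjusted p 0.113), and Lcp2 at 8.02 to 12.0 and 17.8 to 23.1 CPM (1.16, SE 0.18, edgeR adjusted p 0.104). Bcl11b was at 1.93 to 4.73 and 5.81 to 12.6 CPM (1.34, SE 0.36, edgeR adjusted p 0.193). In each of these the highest value belonged to Y665F male 1 or Y665F male 2.

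Cd8a was at 1.01, 0.607, 1.06 and 0.694 CPM in WT and at 10.9, 4.77, 3.10 and 4.27 CPM in Y665F males. The highest value is that of Y665F male 1, the library with thymic genes, and the other Y665F males were also above every WT male. Its log2 fold change was 2.81 (SE 0.46, edgeR adjusted p 0.104). Without Y665F male 1, no gene was called, the median of the 32 genes was 1.08 and 19 of the 34 genes still did not overlap, against 6.25% of all genes.

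Of the 6 genes below 0 in Y665F males, 5 were highest in WT male 2, the library with the most epididymis RNA, and the 6th, Satb1, was at -0.05. Tcf7 was at 3.37, 123.7, 13.0 and 8.42 CPM in WT males 1 to 4, Lef1 at 0.835, 50.7, 7.22 and 21.5 CPM, and Ptpn22 at 5.04, 45.1, 20.9 and 11.3 CPM. WT male 2 was the highest of the 24 libraries for each of them, and WT male 1, with the lowest epididymis sum of the WT males, was the lowest WT male. Lef1 was at -1.98, Tcf7 at -1.58, Zap70 at -0.87, Skap1 at -0.81 and Ptpn22 at -0.80, none of them called. Without WT male 2, Tcf7 was at 0.59 and Zap70 at 0.88, and 29 of 32 genes lay above 0. The 3 still below 0 were Lef1 at -0.90, Ptpn22 at -0.057 and Skap1 at -0.032. Without WT male 1, 9 of the 32 were called higher (background 1.82%). With the epididymis genes as a covariate, chosen after seeing the data, no gene was called, the median was 1.61, 31 of 32 lay above 0 and 22 had an unadjusted p under 0.05, against 5.36% of all genes. The NK cell sum was 7.09 to 19.6 CPM in WT males 1, 3 and 4, 123.0 CPM in WT male 2, where Klrb1c alone reached 117.2 CPM, and 21.3 to 31.3 CPM in Y665F males. Of the 10 NK genes, 9 lay above 0 at 1.11 to 2.34, Klrb1c lay at -3.91, and none was called. The B cell sum was 8.06 to 17.6 CPM in WT and 21.9 to 42.4 CPM in Y665F males. Lymph node stroma genes summed to 3.68 to 12.0 CPM in WT and 8.77 to 22.7 CPM in Y665F males, with overlap.

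**Figure D3:**
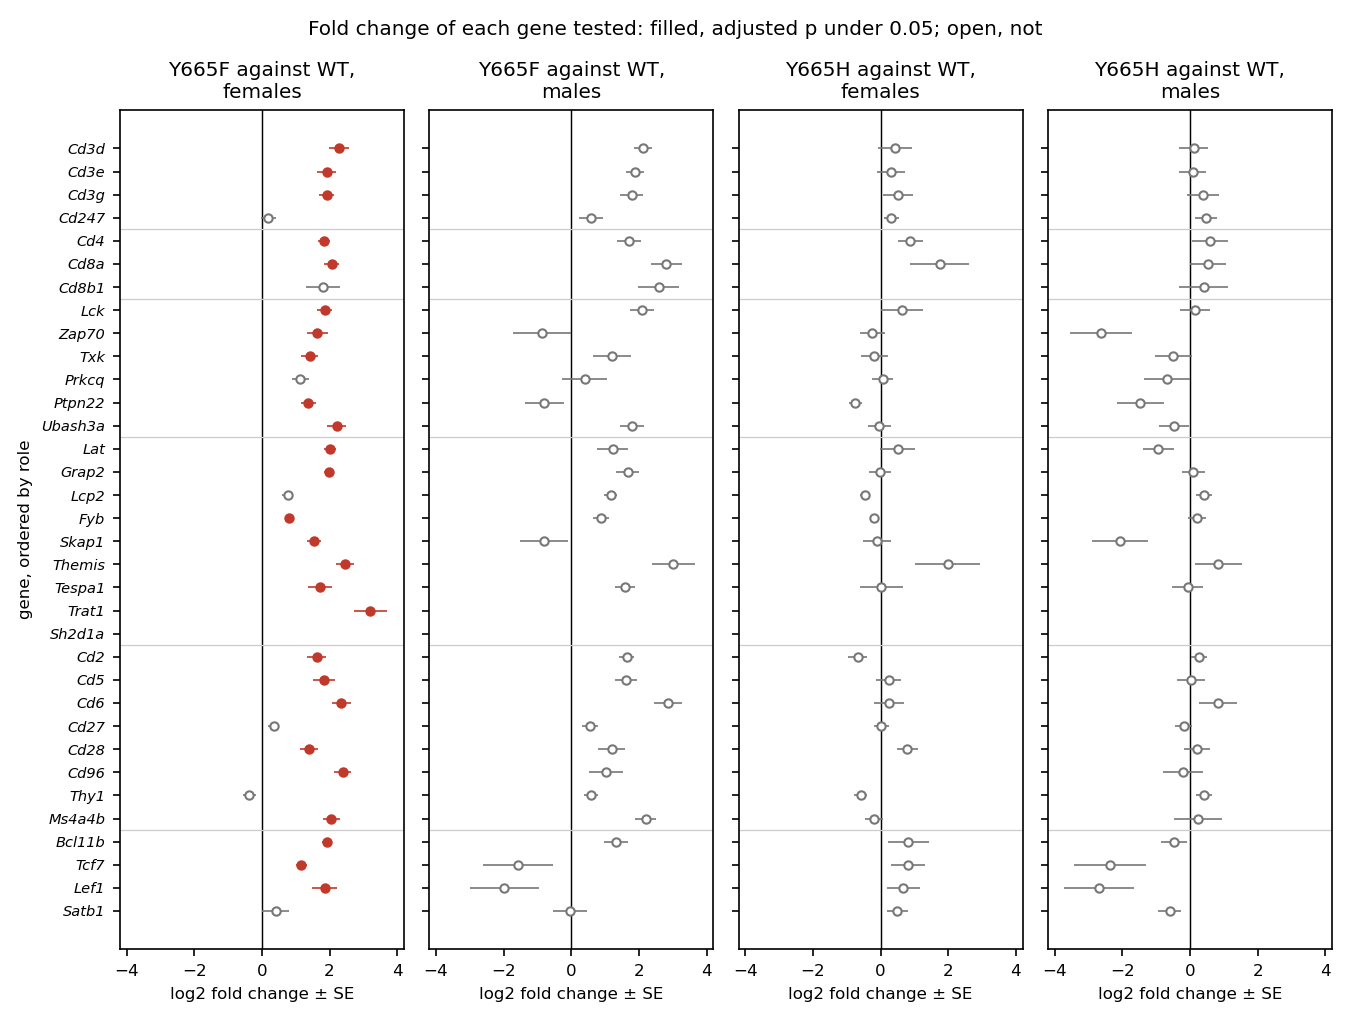
Log2 fold change with SE of each gene tested in the 4 comparisons with WT, filled where the edgeR adjusted p was under 0.05. In Y665F females 26 of 33 are filled and all of these lie right of 0. In Y665F males most lie right of 0 with none filled, and in the Y665H comparisons the points scatter around 0.

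Y665H was then set against WT. In females none of the 30 tested genes was called (background 3.34% in either direction), and the median was 0.24. An unadjusted p under 0.05 was reached by 6 of the 30, against 23.8% of all genes, so at no higher a share. DESeq2 called 3 lower, against 6.39% of all genes. Ptpn22 was at 3.61, 2.46, 2.98 and 3.35 CPM in WT and at 2.04, 2.00, 1.43 and 1.79 CPM in Y665H females, all below WT (-0.75, SE 0.19, edgeR adjusted p 0.0638). Lcp2 was at 10.1, 8.27, 7.69 and 11.1 CPM and at 6.09, 7.16, 6.31 and 7.10 CPM, again without overlap (-0.46, SE 0.13, edgeR adjusted p 0.0871). These 2 were the only ones of the 34 without overlap, both lower, against 6.81% of all genes lower and 6.45% higher. Cd4, the co-receptor with the smallest p, was at 1.78, 2.22, 1.37 and 5.17 CPM in Y665H females (0.88, SE 0.37, edgeR adjusted p 0.193), and only Y665H female 4 was far above WT.

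Y665H female 4 held many of the highest values of its group. Its Cd8a was 6.47 CPM against 0.413 to 0.576 CPM in the other Y665H females, its Themis 3.32 CPM against 0.0933 to 0.329 CPM, its Tcf7 11.2 CPM against 2.24 to 2.77 CPM and its Bcl11b 6.11 CPM against 0.684 to 1.37 CPM. Not all of the genes were high there: Ms4a4b was 0.710 CPM against 0.529 to 1.07 CPM, and Ptpn22, Cd2 and Lcp2 lay within the range of the others. Without this library the median of the 30 genes was -0.26, 24 lay below 0 and none was called. NK cell genes were lower in Y665H females in the fit with all 8 libraries, with 4 of 10 called (background 1.8% lower and 1.53% higher). These were Nkg7 (-1.24), Prf1 (-1.75), Gzma (-1.63) and Gzmb (-2.01). The NK sums were 2.98 to 3.78 CPM against 6.85 to 9.26 CPM in WT. Of the 51 other pathway genes, only Nfatc2 (-0.69) and the adaptor Dok2 (-0.79) were called, both lower. That is a share near that of all genes (3.34% in either direction).

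In males, none of the 32 tested genes was called in Y665H against WT (0% of 16406 genes, lowest adjusted p of the 32 in edgeR 0.402), and the median was 0.09. An unadjusted p under 0.05 was reached by 3 of the 32, against 11.4% of all genes, and DESeq2 called 0, against 0.421% of all genes. The smallest p was that of Zap70, at 1.76, 26.8, 3.88 and 2.08 CPM in WT and 1.94, 0.874, 1.06 and 1.64 CPM in Y665H males (-2.62, SE 0.91). Without WT male 2 it was -0.89. In none of the 34 genes were the groups apart, against 2.43% of all genes higher and 1.18% lower. Cd4 was at 4.78, 0.874, 2.39 and 6.24 CPM in Y665H males, against 1.57 to 3.02 CPM in WT. The CD3 chains summed to 1.44 to 5.27 CPM in Y665H and 2.59 to 3.39 CPM in WT males.

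Y665H and Y665F were compared directly with each other. These fits share the Y665F libraries with the comparisons above, and each is described by its own values. In females, 14 of 33 tested genes fell and none rose in Y665H (background 8.59% lower and 8.77% higher), the median was -1.40 and 31 of 33 lay below 0. The groups did not overlap in 18 of the 34 genes, all lower (background 21.5% lower and 6.62% higher), and 20 had an unadjusted p under 0.05 (background 33.4%). The calls comprised 2 receptor chains, 4 enzymes, 4 adaptors and 4 surface molecules, and no co-receptor or nuclear factor. Cd2 was at 8.79, 8.66, 5.29 and 8.01 CPM in Y665F and at 1.01, 1.89, 1.21 and 1.56 CPM in Y665H females, with a wide gap (-2.30, SE 0.25, edgeR adjusted p 0.00165). Fyb was at 30.6 to 41.4 and 13.2 to 17.8 CPM (-1.01, SE 0.11, edgeR adjusted p 0.00177), and Ptpn22 at 5.87 to 11.2 and 1.43 to 2.04 CPM (-2.11, SE 0.24, edgeR adjusted p 0.00184). Cd3e was at 3.12 to 4.58 and 0.622 to 2.27 CPM (-1.61, SE 0.39, edgeR adjusted p 0.0251). Cd4 was at -0.97 (SE 0.39, edgeR adjusted p 0.119) and Lef1 at -1.18 (SE 0.57, edgeR adjusted p 0.185). For Cd4 the groups overlapped through Y665H female 4 alone, at 5.17 CPM against 4.88 to 7.07 CPM in Y665F females.

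Without Y665H female 4, 27 of 33 genes were called lower (background 6.49%), the median was -2.11, all 33 lay below 0 and 31 of the 34 did not overlap (background 26.8%). In that fit Cd8a fell by 2.30, Bcl11b by 2.25 and Lck by 2.36, and Cd247, Thy1 and Satb1 were not called. NK and B cell genes fell as well in the fit with all 8 libraries (background 8.59% lower and 8.77% higher), with 10 of 10 and 7 of 9 called. In the same fit 6 of 10 macrophage genes and 26 of 51 other pathway genes fell, with 1 called higher. With the skeletal muscle genes as a covariate, chosen after seeing the data, 8 of the 33 were called, all lower, against 12.7% of all genes in either direction.

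In males, 5 of 32 tested genes fell in Y665H against Y665F (background 0.901% lower, 1.03% in either direction), all 32 lay below 0 and the median was -1.49. Lat was at 11.2, 6.30, 5.86 and 5.10 CPM in Y665F and at 2.18, 1.16, 1.12 and 2.18 CPM in Y665H males, without overlap (-2.16, SE 0.34, edgeR adjusted p 0.0295). Grap2 was at 9.98 to 16.0 and 3.06 to 5.97 CPM (-1.57, SE 0.25, edgeR adjusted p 0.0301). Cd2 (-1.38), Zap70 (-1.76) and Txk (-1.70) were the other calls. Cd3d (-2.02, SE 0.42, edgeR adjusted p 0.0668), Bcl11b (-1.80, SE 0.36, edgeR adjusted p 0.0610) and Cd8a (-2.27, SE 0.59, edgeR adjusted p 0.109) led the remaining roles. In 18 of the 34 genes the groups did not overlap, all lower, against 6.17% of all genes. No call was kept with every library left out in turn. The count was 0 without Y665F male 1, where few of all genes were called either (background 0.0614% lower). It was also 0 without Y665F male 2 or 3 or Y665H male 1, 2 or 3, fits for which the share of all genes is not given. The count was 3 without Y665H male 4 (background 0.507% lower) and 7 without Y665F male 4 (background 1.17% lower). DESeq2 called 20 lower, against 4.16% of all genes. With epididymis genes as a covariate, chosen after seeing the data, none was called (background 0.4%), 32 of 32 lay below 0 and the median was -1.58. In the fit without the covariate NK cell genes were lower too, with 4 of 10 called (background 0.901% lower).

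**Figure D4:**
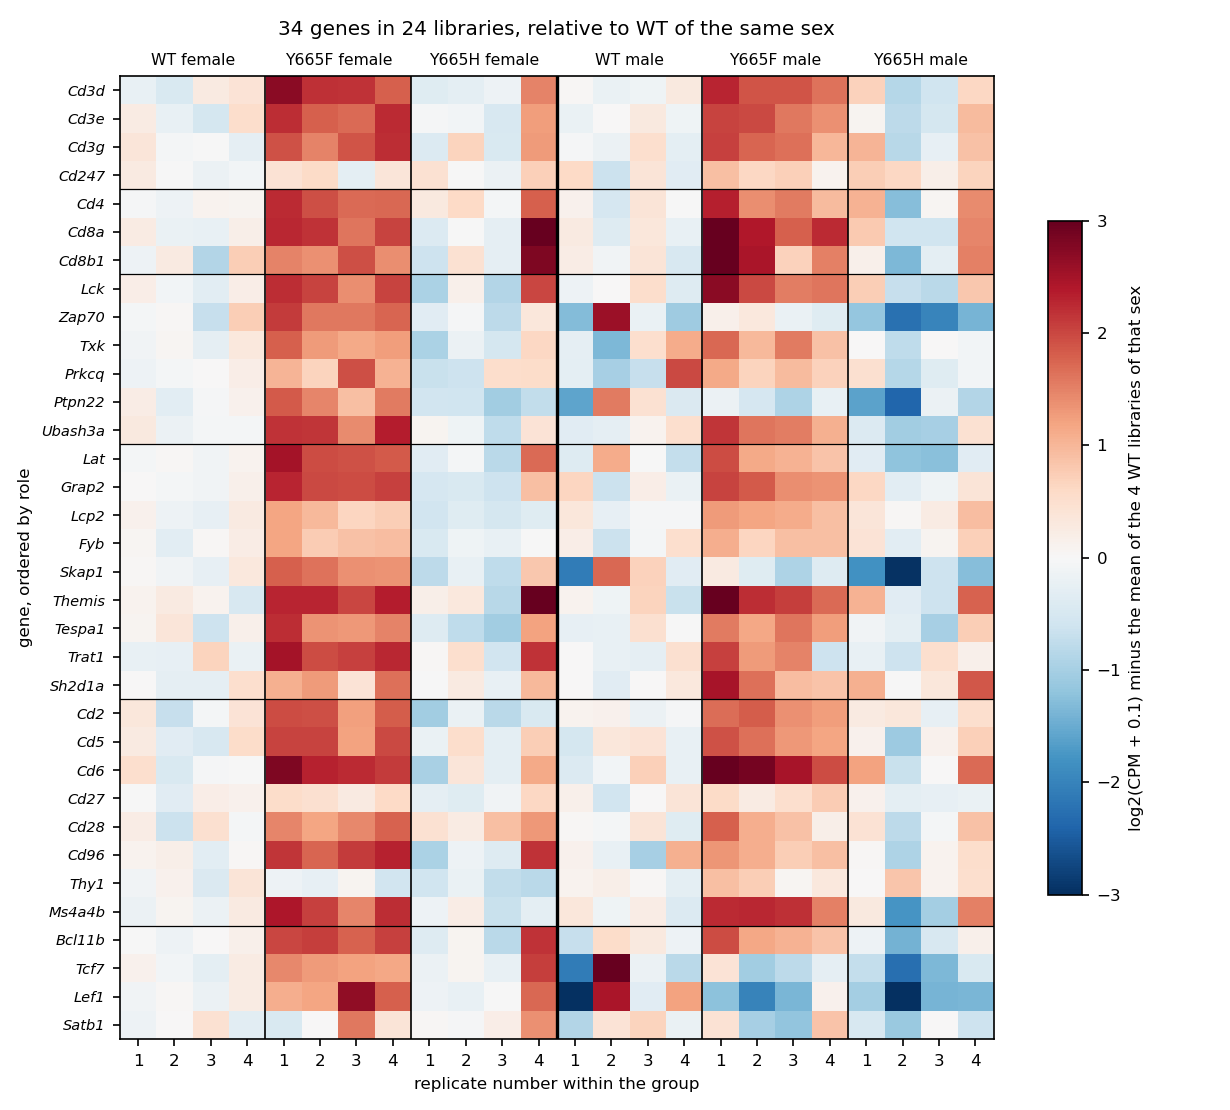
Each cell is log2(CPM + 0.1) of a gene in a library minus the mean of the 4 WT libraries of its sex, red above and blue below. The Y665F columns are red across most rows, Y665H female 4 differs from Y665H females 1 to 3, and WT male 2 stands out in Zap70, Ptpn22, Skap1, Tcf7 and Lef1.

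WT males and WT females were compared to show the level from which each sex started. Of 29 tested genes 4 were called higher in males (background 7.15%) and 1 lower (background 5.95%). Thy1 was at 23.4, 24.7, 22.3 and 17.9 CPM in males and 41.9, 49.6, 33.5 and 59.4 CPM in females, the call in the lower direction (-1.21, SE 0.20, edgeR adjusted p 0.0134). The higher ones were Lef1 (5.13, SE 1.08), Skap1 (2.98, SE 0.73), Ptpn22 (2.58, SE 0.60) and Bcl11b (1.22, SE 0.30), with edgeR adjusted p from 0.0243 to 0.0359. The libraries of the sexes did not overlap in 8 of the 34 genes with males higher (background 18.2%) and in 1 with males lower (background 7.01%). All 4 genes called higher were highest in WT male 2 among the WT libraries. The count of calls was 3 of 31 tested without WT male 2 (Thy1, Lef1 and Ptpn22, background 9.9%) and 9 of 29 without WT male 1 (background 30.7%), shares near those of all genes. It was 2 without WT male 3 (background 4.01%) and 0 or 1 without any 1 of the 4 WT females, where the share of all genes is not given. Cd3d, Cd3e and Cd3g were at 0.18, 0.40 and 0.36 and none was called. Epididymis genes, at most 1.04 CPM in WT females, move with sex here, as do the skeletal muscle genes (15.0 to 18.8 CPM in WT males, 6 of 7 called lower), so sex and these tissues cannot be told apart.

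Whether a mutation acted differently in males and females was asked with an interaction term. For Y665F none of 33 tested genes was called (0% of 16732 genes, 7 of the 33 at an unadjusted p under 0.05 against 21.8% of all genes), and the lowest adjusted p in edgeR was 0.136, for Lef1 and Ptpn22. DESeq2 called 4, against 7.14% of all genes. For Y665H none of 32 was called (background 0.0119%, 7 of the 32 at an unadjusted p under 0.05 against 18.3% of all genes), with a lowest edgeR adjusted p of 0.153 for Lcp2, and DESeq2 called 1, against 4.52% of all genes. The unadjusted shares of these genes were thus near those of all genes in both interactions. Of the 32 genes tested against WT in both sexes, 25 lay above 0 in Y665F mice of both sexes, 6 above 0 in females and below 0 in males, and 1, Thy1, the reverse.

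The balance of Cd8a to Cd4 does not depend on scaling between libraries. The mean log2 ratio of counts, with a pseudocount of 0.5, was -1.29 ± 0.29 for females of WT, -1.08 ± 0.19 for those of Y665F and -1.30 ± 1.11 for those of Y665H (SD, n = 4). For males it was -1.45 ± 0.17 with WT, -0.43 ± 0.50 with Y665F and -1.49 ± 0.60 with Y665H (SD, n = 4). Cd4 counts thus exceeded Cd8a counts on average in all groups. In Y665F males the libraries were at -0.12, -0.37, -1.16 and -0.07, all above the WT males at -1.68 to -1.30. The difference from WT males was 1.02, which gave the smallest p that 4 against 4 libraries allow, 0.0286, in an exact 2-sided permutation test, and 0.171 after adjustment over 6 comparisons. In females the difference was 0.21 (exact permutation p 0.229, adjusted 0.457). Y665H female 4 had the highest ratio of the 24 libraries, 0.32, and the other Y665H females were at -2.07 to -1.52. None of the 6 comparisons passed the adjustment, and with a library left out no p can go below 0.0571.

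**Figure D5:**
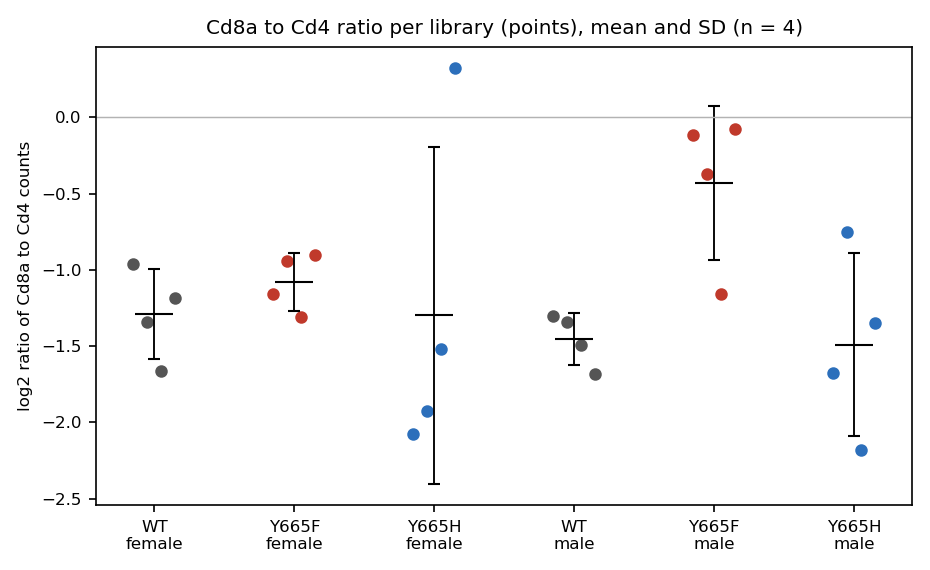
Log2 ratio of Cd8a to Cd4 counts per library (points), with mean and SD (n = 4) as line and bars. The Y665F males lie at -1.16 to -0.07 and the WT males at -1.68 to -1.30, and Y665H female 4 is the only library above 0.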

How the data were processed

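The deposited files are tables of read counts per gene symbol, 1 per library. Total RNA was freed of ribosomal RNA and stranded libraries were read from both ends, per the labels' protocols. The submitters' processing notes name FastQC 0.11.9, Trimmomatic 0.36, STAR, SAMtools 1.9, Picard 2.9.2, HTSeq 0.9.1 and build mm10, with no roles. The annotation and strand setting are not given in the sources used here, so reads of overlapping genes on opposite strands may be mixed. The 5 entries that name no gene held 24.8 to 39.7% of counts and were left out. Replicate libraries were not alike within sampling noise.

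Counts were tested with the quasi-likelihood test of edgeR 4.0.16 (R 4.3.3, limma 3.58.1), with TMM scaling, filterByExpr and Benjamini-Hochberg adjustment over all genes, each contrast on its own groups (8 libraries, interactions 16). SE is the log2 fold change divided by the root of F. The procedure was also run on simulated counts for some of the comparisons. These had no libraries set apart by RNA of other tissues, so that run does not show how such libraries affect the calls. Alternatives were DESeq2 1.42.0, other scalings, no filter, 1 fit of 24 libraries, a replicate block and leaving out each library. Coordinates and exon lengths come from GENCODE on GRCm38. The members and lists were chosen with earlier results of these data known. Per comparison, the values of every library are given for at most 8 genes, mainly those of smallest p in each role. Others are given by range or count, some of them with fold change, SE and adjusted p. At most 4 called genes are named per other list.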

Additional observations from a re-analysis of the deposited data

Results flagged for a closer look

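Among the 4 libraries of a group, the highest or lowest was set apart from the rest by Dixon's criterion (gap over range above the 95% critical value) in 26 of 204 combinations of gene and group. Chance gives about 1 in 20 for normal values, which CPM near the floor need not be. The share of all genes set apart was not computed, so the count is not read as particular to these genes.

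Y665H female 4, the library with thymic genes at 27.1 CPM summed, accounted for 14 of them, each time as the highest. Its values were 1.56 CPM for Cd3d, 2.27 for Cd3e, 6.47 for Cd8a, 1.51 for Cd8b1, 7.10 for Lck, 4.54 for Lat, 5.23 for Grap2, 3.32 for Themis, 0.824 for Tespa1, 1.22 for Cd96, 6.11 for Bcl11b, 11.2 for Tcf7, 1.87 for Lef1 and 32.2 for Satb1. Y665F male 1, the other library with thymic genes, was set apart in Themis at 5.39 CPM.

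In WT male 2, the library with the highest epididymis sum, Zap70 was set apart at 26.8 CPM and Tcf7 at 123.7 CPM. Prkcq was set apart in WT male 4 at 12.4 CPM and Trat1 in WT female 3 at 0.134 CPM, which is 5 counts. Y665F female 1 was the highest of its group in Txk at 1.79 CPM, Lat at 7.91 CPM and Tespa1 at 1.76 CPM. Y665F female 3 was the highest in Cd8b1 at 0.790 CPM and the lowest in Cd5 at 1.34 CPM. Y665F male 4 was the lowest in Ms4a4b at 3.14 CPM, and Y665H male 2 the lowest in Txk at 0.386 CPM.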

How the results depend on the processing

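Counts of called genes were compared across settings, and the cause of each shift was not tested. The share of all genes called stands above for DESeq2, the covariates and some libraries left out. It is not given for the fit of 24 libraries. Counts without that share show only how the calls moved, not a result about these genes. In Y665F against WT females the 26 calls became 15 in 1 fit of all 24 libraries, 0 with skeletal muscle genes as a covariate (chosen after seeing the data, as was the epididymis covariate) and 13 to 28 with a library left out. In males the 0 calls became 18 with DESeq2, 18 in the fit of 24 libraries and 0 to 9 with a library left out. In Y665H against WT the 0 calls in females became 3 with DESeq2 and 0 to 2 with a library left out (2 without WT female 3), and those in males 1 in the fit of 24 libraries and 0 with any library left out. In Y665H against Y665F the 14 calls in females became 8 with the muscle covariate and 10 to 27 with a library left out, and the 5 in males became 20 with DESeq2, 10 in the fit of 24 libraries, 0 with the epididymis covariate and 0 to 7 with a library left out. The 5 calls between WT sexes became 0 to 9 with a library left out. DESeq2 called 4 genes in the Y665F interaction and 1 in the Y665H interaction, and leaving out a library gave 0 to 3 and 0 to 2, with the highest counts without WT male 1. Other scalings and no filter on low counts left each count within 1.5 times. Scaling by library totals moved the median log2 fold change of all genes from 0.02 to 0.15 in Y665F against WT females, from -0.03 to -0.18 in Y665H against Y665F females, from 0.04 to 0.22 between WT sexes and from -0.06 to -0.25 in the Y665F interaction.

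With the replicate number as a block, the counts were 24 and 0 for Y665F against WT in females and males, 0 and 0 for Y665H against WT, 12 and 0 for Y665H against Y665F, 1 between WT sexes and 0 in both interactions. The share of all genes called in these fits is not given here, so the counts show only how the calls moved. Same-numbered libraries did not deviate together as a rule, though some pairs did: 1 or 2 of 4 pairs per comparison had a correlation over 0.1. The range was from -0.37 to 0.71, so the numbers were not taken to pair the libraries.

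With a library left out, the difference in the Cd8a to Cd4 log2 ratio ran from 0.08 to 0.32 for Y665F against WT females, 0.90 to 1.27 in males, -0.55 to 0.25 for Y665H against WT females, -0.28 to 0.20 in males, -0.76 to 0.039 for Y665H against Y665F females and -1.31 to -0.83 in males. Depth limits Trat1, Sh2d1a and Cd8b1 most, since several of their values lie at or below the floor of 3 counts.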
